A study of Homo sapiens with 8 samples.

Results

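The genes described here encode 8 small proteins that bind actin monomers or the sides and ends of filaments, chosen by name from the 60664 genes in the count tables. They are the ADF/cofilin family members CFL1, CFL2 and DSTN, the profilins PFN1 and PFN2, the β-thymosins TMSB4X and TMSB10, and the cyclase-associated protein CAP1, the longest of the set. All 8 were found in the tables of both cell lines and passed the filter on low counts in every comparison.

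Cells keep a large store of unpolymerized actin, and these proteins set how it is used. Cofilins and destrin sever old filaments and bind the ADP-actin that is released, CAP1 helps to strip cofilin from that actin and to exchange its nucleotide, profilins carry ATP-actin to growing filament ends, and β-thymosins hold monomers in reserve. Actin itself is folded by the chaperonin TRiC, to which prefoldin (PFD) delivers it. The genes below encode partners of folded actin, and the question put to the data was whether ribosomes translating them were more or less common among ribosomes recovered with either chaperone than among all ribosomes.

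U-2 OS, a human line from an osteosarcoma, was used for selective ribosome profiling, which counts the mRNA fragments that ribosomes protect. The TRiC line (CCT4-Halo) carried a genome-edited HaloTag within a loop of the TRiC subunit CCT4, and the PFD line (PFDN4-Halo) one at the C terminus of the prefoldin subunit PFD4. All cells received cycloheximide at 100 µg per ml for 1 min and the crosslinker DSP at 2 mM for 30 min. After RNase I digestion, part of the ribosome pellet was kept as input and the rest was pulled down through the HaloTag. The 4 groups (input and pulldown in either line) had 2 biological replicates each, and p-values measure the spread between these. Each line was derived as a clone, so that line, clone and library preparation cannot be told apart in a comparison between lines.

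The 8 libraries held 9523128 to 32637658 counts of ribosome-protected fragments (RPFs). Replicates were closer in the TRiC line, where the common dispersion (the squared coefficient of variation between replicates) was 0.0153, than in the PFD line, where it was 0.331. The mesenchymal markers VIM, SPARC and COL1A1 each had at least 1448 CPM (the gene's counts relative to the total of its library) in all libraries, whereas COL1A2 and TWIST1 reached at most 2.02 and 0.441 CPM. For all genes other than the markers, the totals were first scaled by TMM, separately in each comparison. The CPM of a gene in a library therefore differ a little between comparisons. Markers of blood cells and hepatocytes were at or near 0, with CD3E at 0 throughout. The summed epithelial markers lay between 78.1 and 95.8 CPM in the TRiC line and between 22.3 and 29.3 CPM in the PFD line. CLDN4 ranged from 10.8 to 83.4 CPM over all libraries. EPCAM had both its lowest and its highest values, 0.105 and 18.4 CPM, in the PFD line. In PFD input replicate 2 it exceeded CLDN4 (18.4 against 10.8 CPM).

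The coding sequences of the set are short and several have processed pseudogenes, which matters because the authors kept reads that aligned to a single place in hg38. The β-thymosins are shown here because TMSB4X is the extreme of this property within the set and TMSB10 is its close relative. In the coding sequences below, spliced from the annotated exons and read 5′ to 3′ with the stop codon, capitals mark bases covered by at least 1 window of 30 bases that has no exact copy elsewhere in hg38. In the pseudogenes, capitals mark the bases that differ from the parent gene. TMSB4X lies at chrX:12975110-12977227 on the plus strand, TMSB10 at chr2:84905656-84906671 on the plus strand, TMSB4XP1 at chr1:42500205-42500339 on the minus strand, inside the gene CCDC30, and TMSB10P1 at chr2:235882362-235882493 on the minus strand, inside the gene AGAP1.
TMSB4X: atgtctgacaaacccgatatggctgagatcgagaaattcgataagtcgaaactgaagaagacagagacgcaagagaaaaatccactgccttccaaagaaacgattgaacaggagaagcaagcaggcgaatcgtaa
TMSB4XP1: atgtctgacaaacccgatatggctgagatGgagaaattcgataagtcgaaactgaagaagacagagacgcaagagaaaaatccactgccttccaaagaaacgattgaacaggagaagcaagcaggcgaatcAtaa
TMSB10: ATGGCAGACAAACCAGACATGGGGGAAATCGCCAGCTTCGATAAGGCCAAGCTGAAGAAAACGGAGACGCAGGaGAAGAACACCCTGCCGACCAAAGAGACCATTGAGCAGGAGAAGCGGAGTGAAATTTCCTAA
TMSB10P1: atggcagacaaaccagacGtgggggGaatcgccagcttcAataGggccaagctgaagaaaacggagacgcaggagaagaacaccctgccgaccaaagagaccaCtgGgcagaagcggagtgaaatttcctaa
TMSB4X has no capital among its 135 bases, whereas 134 of the 135 bases of TMSB10 are capitals. TMSB4XP1 differs from TMSB4X at 2 bases. TMSB10P1 has 132 bases against the 135 of TMSB10, and 6 of the 132 differ. It also lacks bases of its parent, which no capital marks.

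Every one of the 106 windows of 30 bases in the TMSB4X coding sequence had an exact copy elsewhere in the genome. The copies were spread over several loci. TMSB4XP6 on chromosome 20 held 93 of the windows, TMSB4XP8 on chromosome 4 held 76, TMSB4XP1 held 72, and the Y-linked paralogue held 19. The corresponding share was 46.5% in DSTN, 39.3% in PFN1, 28.3% in TMSB10, 28.2% in CAP1 and 23.5% in CFL1. CFL2 and PFN2 had no such window. Windows of 34 bases gave 100% for TMSB4X and between 18.4% and 39.4% for the other 5 genes with copies. A read that falls inside such a window is left out of a gene's count unless another property, such as a splice junction, makes its alignment unique. The levels of these genes are therefore counts of the readable part of each transcript, and the effect on levels was not tested. Within the set the paralogues could be told apart, because no pair shared a window of 30 bases. Identity at the nucleotide level was 70.1% between CFL1 and CFL2, 60.3% between PFN1 and PFN2 and 72.6% between TMSB4X and TMSB10.

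Per kilobase of coding sequence, TMSB10 had the highest level of counted reads of the set in both inputs. It had 4913 ± 220 CPM per kb in the TRiC input and 4460 ± 218 in the PFD input (mean ± SD, n = 2). CFL1, the main non-muscle cofilin, was second in both, at 1752 ± 74.5 and 2529 ± 66.3 CPM per kb. In the TRiC input the order went on with TMSB4X at 1308 ± 123, PFN1 at 566 ± 2.59, PFN2 at 294 ± 16.0, CAP1 at 280 ± 11.2, CFL2 at 125 ± 1.17 and DSTN at 119 ± 1.91 CPM per kb. The ranges of PFN2 and CAP1 overlapped there, so these neighbours were not separated. In the PFD input PFN1 was the next at 1378 ± 72.1, followed by CAP1 at 440 ± 9.50, PFN2 at 228 ± 22.8, TMSB4X at 180 ± 22.7, DSTN at 172 ± 4.61 and CFL2 at 90.2 ± 34.7 CPM per kb. The values of TMSB4X enclosed those of DSTN. The cofilins thus differed among themselves by more than 10 times in level, and TMSB4X held a lower place in the PFD than in the TRiC input. These values divide by the full coding length, although all 106 windows of TMSB4X and none of CFL2 and PFN2 had copies. The order is thus one of counted reads, and how far it follows translation was not tested.

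In the TRiC pulldown every gene of the set took a smaller share of RPFs than in the TRiC input, with log2 fold changes from -0.70 to -0.16 and a median of -0.29. All 8 genes had both pulldown values below both input values, as did 31.2% of the 17934 genes tested. By edgeR's quasi-likelihood test with Benjamini-Hochberg adjustment over all genes, 5 of the 8 fell (adjusted p under 0.05) and none rose, whereas 10.6% of all genes tested fell and 8.64% rose. A log2 fold change below 0, found in all 8, was found in 50.3% of all genes. The genes that fell were TMSB4X, PFN1, CFL1, TMSB10 and PFN2. A fold change here compares shares of RPFs after TMM scaling, in which most genes are taken as unchanged. When all 8 libraries shared a single estimate of the spread, the fold changes stayed between -0.70 and -0.16. None of the 5 genes passed the threshold in that fit, and 0.164% of all genes did. Cyclic loess drew the values toward 0, to a median of -0.19 over the 8 genes, with CFL1 at -0.24, TMSB10 at -0.19, PFN2 at -0.16 and CAP1 at -0.043. For reference, the actin genes ACTB (-0.24, adjusted p = 0.00789) and ACTG1 (-0.39, adjusted p = 0.000981) also fell in the TRiC pulldown by edgeR's test. In the PFD pulldown they had log2 fold changes of 0.02 and 0.25 and missed the threshold (adjusted p = 0.993 and 0.626). By position along the coding sequence, the paper counts actin among the interactors of both TRiC and PFD. Gene totals do not address that question.

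Among the ADF/cofilin genes, CFL1 (ENSG00000172757, chr11:65823022-65862026, minus strand, 166 codons) had 846 and 899 CPM in the TRiC inputs and 661 and 669 CPM in the pulldowns. The groups did not overlap, and the log2 fold change was -0.39 ± 0.06 (SE, adjusted p = 0.000512). Exons of an opposite-strand gene overlie 19.0% of the exon bases of CFL1, and the strand setting of the counting is not given in the sources used here. CFL2 (ENSG00000165410, chr14:34709113-34714823, minus strand, 166 codons), the muscle-enriched cofilin, had 62.5 and 61.7 CPM in the inputs and 53.1 and 51.8 CPM in the pulldowns. Its log2 fold change of -0.24 ± 0.09 missed the threshold (adjusted p = 0.0784). DSTN (ENSG00000125868, chr20:17570075-17609919, plus strand, 165 codons) encodes destrin, also called ADF. It had 58.1 and 59.4 CPM in the inputs and 56.6 and 48.7 CPM in the pulldowns, with a log2 fold change of -0.16 ± 0.10 (adjusted p = 0.305). It was -0.28 without TRiC pulldown replicate 1 and -0.042 without TRiC pulldown replicate 2, neither past the threshold.

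The profilins both fell in the TRiC pulldown, and their replicates were close. PFN1 (ENSG00000108518, chr17:4945652-4949061, minus strand, 140 codons), the ubiquitous profilin, had 239 and 237 CPM in the TRiC inputs and 175 and 174 CPM in the pulldowns. The log2 fold change was -0.44 ± 0.07 (SE, adjusted p = 0.000561). PFN2 (ENSG00000070087, chr3:149964904-150050788, minus strand, 140 codons), the profilin known best from neurons, had 119 and 128 CPM in the inputs and 103.7 and 103.5 CPM in the pulldowns. The fall was smaller, at -0.25 ± 0.08 (SE, adjusted p = 0.0410). PFN2 was called in 4 of 12 alternative fits, with adjusted p-values over the 12 from 0.00695 to 0.760. Its call was lost without TRiC input replicate 1 (0.133), TRiC input replicate 2 (0.377) or TRiC pulldown replicate 2 (0.0582).

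TMSB4X (ENSG00000205542, 44 codons), the most abundant β-thymosin of many cell types, had the lowest fold change of the set. It had 161 and 184 CPM in the TRiC inputs against 105 and 108 CPM in the pulldowns. The log2 fold change was -0.70 ± 0.08 (SE, adjusted p = 3.5e-05), or 1.62-fold lower. TMSB10 (ENSG00000034510, 44 codons), its close relative, had 669 and 628 CPM in the inputs and 535 and 492 CPM in the pulldowns, with a log2 fold change of -0.34 ± 0.07 (SE, adjusted p = 0.00271). The call of TMSB10 was lost without TRiC input replicate 1 (adjusted p = 0.0723). CAP1 (ENSG00000131236, chr1:40040233-40072649, plus strand, 475 codons) had 388 and 411 CPM in the inputs and 362 and 347 CPM in the pulldowns. Its log2 fold change of -0.17 ± 0.07 missed the threshold (adjusted p = 0.0913).

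**Figure D1:**
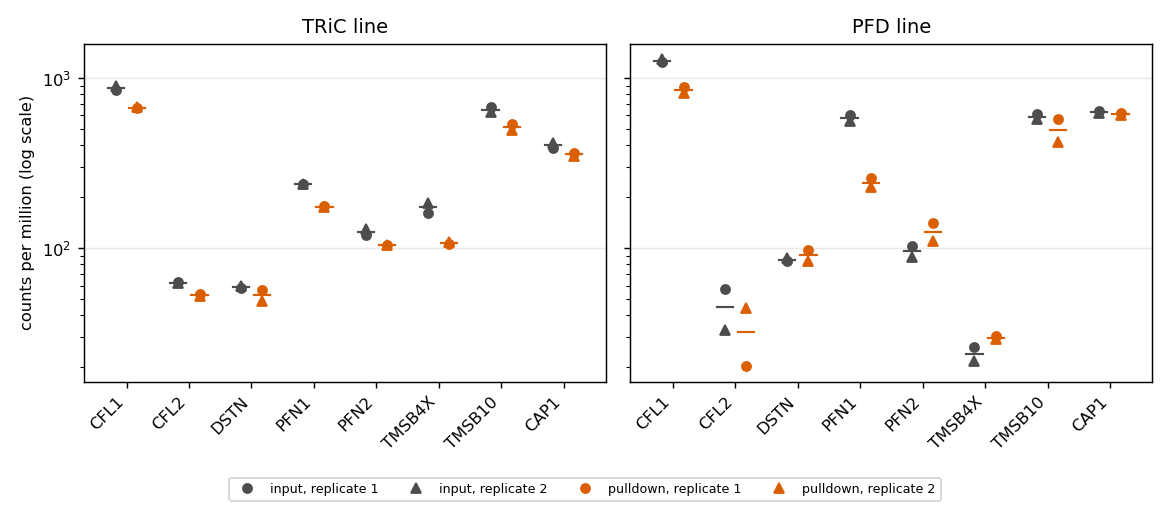
CPM (log axis) of the 8 genes in the TRiC line (left) and the PFD line (right), with input in grey and pulldown in orange, replicate 1 as circles, replicate 2 as triangles and the mean as a bar. All pulldown values lie below the inputs in the TRiC line, whereas in the PFD line PFN1 drops from 600.4 and 557.5 CPM to 256 and 228 CPM and PFN2 and TMSB4X lie above their inputs.

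Other short, well translated genes fell in the TRiC pulldown too. Among protein coding genes, the median log2 fold change was -0.26 for a coding length up to 300 nt (n = 300), -0.25 over 300 and up to 600 nt (n = 1496), -0.11 over 600 and up to 1500 nt (n = 5933) and 0.08 beyond 1500 nt (n = 6882). The share of genes that fell was 33.7%, 29.6%, 14.7% and 4.65% in the same order. Of the 467 genes with a coding length up to 600 nt and more than 50 CPM in the input, which include 7 of the genes described here, 345 (73.9%) fell and 3 rose, with a median of -0.37. Without cytosolic ribosomal protein genes the median was -0.37 over 430 genes. Counted from the lowest of the 467, TMSB4X ranked 13, PFN1 133, CFL1 200, TMSB10 266, PFN2 351, CFL2 360 and DSTN 417. TMSB4X alone was near the low end of that class, and 3 of the 7 lay above its median by more than 0.1. These length and level limits were chosen after values were seen, and the counts are a description without a test. The authors' own analysis asks at which codons a pulldown exceeds the input, and gene counts hold no positions.

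**Figure D2:**
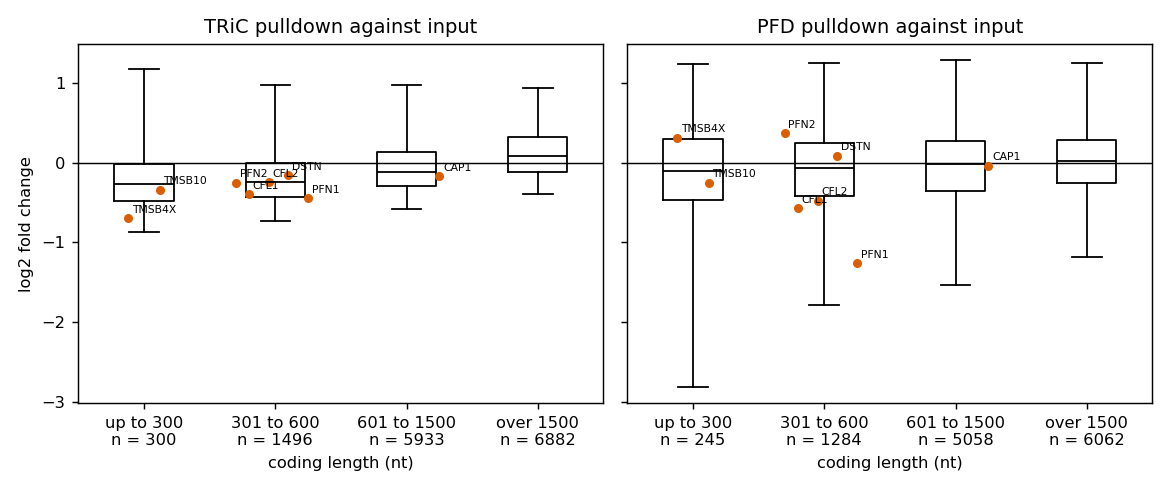
Log2 fold changes of pulldown over input in protein coding genes by coding length in nt, for TRiC (left) and PFD (right), with boxes for quartiles, a line for the median, whiskers at the percentiles 5 and 95, and the 8 genes as orange points. In TRiC the medians run from -0.26 for the shortest class to 0.08 for the longest, and the PFD medians stay between -0.11 and 0.02.

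In the PFD pulldown PFN1 was the gene of the set that fell, with a log2 fold change of -1.26. This was 1 of 8 genes, against 0.191% of the 14111 genes tested that fell. None of the 8 rose, against 0.0496% of all genes. Both pulldown values lay below both inputs for 3 genes (CFL1, PFN1 and CAP1) and above them for 2 (PFN2 and TMSB4X), and they overlapped for 3 (CFL2, DSTN and TMSB10). Over all genes tested, 20.4% had separate lower and 18.3% separate higher pulldown values. The wider spread between PFD replicates limits what could be called.

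PFN1 had 600.4 and 557.5 CPM in the PFD inputs against 256 and 228 CPM in the PFD pulldowns. The groups were far apart, and the log2 fold change had an SE of 0.11 (adjusted p = 0.00973). The call held in 12 of 12 alternative fits, between -1.35 and -1.18. Among the 460 short genes with more than 50 CPM in the PFD input, which had a median of -0.07 and of which 4 fell, PFN1 ranked 6 from the lowest. Its paralogue PFN2 had 102 and 88.8 CPM in the inputs and 139 and 109 CPM in the pulldowns, with a log2 fold change of 0.37 ± 0.19 that missed the threshold (adjusted p = 0.783). The value of PFN2 was 0.53 without PFD pulldown replicate 2 and 0.18 without PFD pulldown replicate 1. Where a library is left out, the lone library of its group is assumed to vary like the other groups.

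CFL1 had 1236 and 1283 CPM in the PFD inputs and 879 and 816 CPM in the PFD pulldowns. Its log2 fold change of -0.57 ± 0.08 stood just outside the threshold (adjusted p = 0.0610). In 11 of 12 alternative fits it was inside, with adjusted p-values over the 12 fits from 8.0e-15 to 0.309. CFL2 had 57.1 and 32.7 CPM in the inputs and 20.1 and 44.1 CPM in the pulldowns, so that its replicates crossed (log2 fold change -0.48 ± 0.44, adjusted p = 0.929). It was -1.17 (adjusted p = 0.0167) without PFD pulldown replicate 2, -0.84 without PFD input replicate 2, and close to 0 without either replicate 1 (-0.037 for the pulldown and -0.027 for the input). DSTN had 83.5 and 86.8 CPM in the inputs and 97.3 and 83.4 CPM in the pulldowns, with a log2 fold change of 0.09 ± 0.19 (adjusted p = 0.978).

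TMSB4X was low in the PFD line, with 25.9 and 21.7 CPM in the inputs and 30.3 and 28.9 CPM in the pulldowns. The log2 fold change was 0.31 ± 0.33 (SE, adjusted p = 0.948). TMSB10 had 609 and 568 CPM in the inputs and 574 and 416 CPM in the pulldowns, with a log2 fold change of -0.25 ± 0.15 (adjusted p = 0.846). It was -0.50 without PFD pulldown replicate 1 and -0.042 without PFD pulldown replicate 2, so the value rested on which of these was kept. CAP1 was nearly level, with 636 and 617 CPM in the inputs and 617 and 604 CPM in the pulldowns (log2 fold change -0.04 ± 0.09, adjusted p = 0.979).

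**Figure D3:**
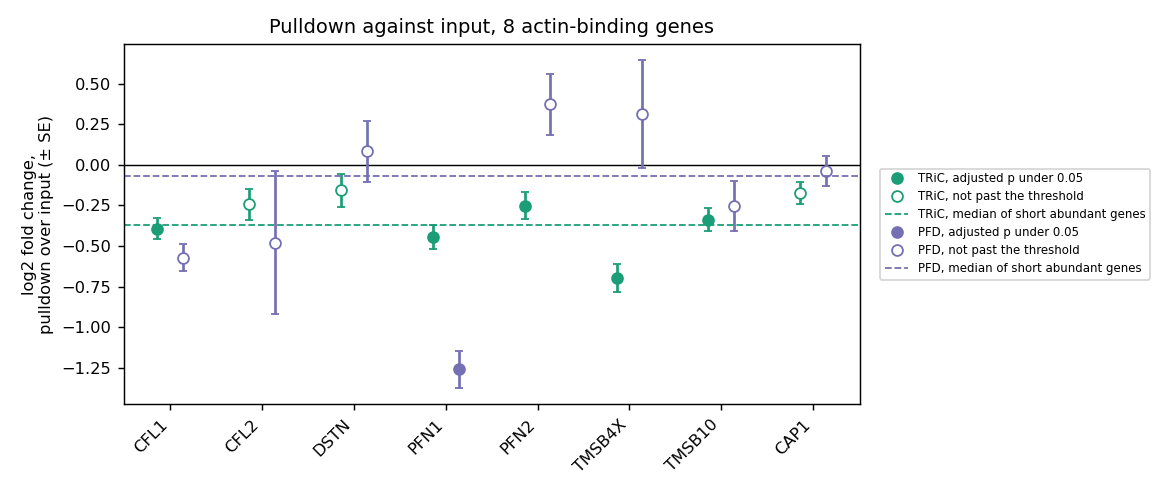
Log2 fold change of pulldown over input with its standard error for the 8 genes in the TRiC line (green) and the PFD line (violet), with filled points for an adjusted p under 0.05 and dashed lines at the medians of short genes above 50 CPM in the input (-0.37 for TRiC and -0.07 for PFD). The TRiC values run from -0.70 to -0.16, and in the PFD line PFN1 at -1.26 is the filled point.

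The difference between the enrichments was tested as the TRiC minus the PFD log2 fold change over all 8 libraries, and no gene of the set passed the threshold. Of the 18855 genes tested, 0.0371% did. At an unadjusted p under 0.05 there were 3 genes of the set, against 14.8% of all genes, and DESeq2 called 2, PFN1 and TMSB4X, against 5.22% of all genes. For PFN1 the difference was 0.83 ± 0.12 (SE, adjusted p = 0.105). For TMSB4X it was -0.99 ± 0.19 (adjusted p = 0.143), and for PFN2 -0.61 ± 0.19 (adjusted p = 0.229). Without PFD pulldown replicate 2 these 3 genes were called, but so were 18.4% of all genes, and without PFD pulldown replicate 1 PFN1 and TMSB4X were, with 5.62% of all genes. The remaining 5 genes had differences between -0.23 and 0.23.

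The inputs of the lines were compared after the values had been seen, because the levels of PFN1 and TMSB4X stood so far apart. In this comparison 5 of the 8 genes differed between the TRiC and the PFD input, as did 40.3% of the 16341 genes tested. The TRiC input was higher for 1 gene and lower for 4, against 22.6% and 17.7% of all genes. The median log2 difference of all genes tested was 0.11. CPM in this comparison were scaled over the inputs of both lines alone. TMSB4X had 159 and 182 CPM in the TRiC inputs and 26.5 and 21.7 CPM in the PFD inputs, 7.02-fold higher in the TRiC line (log2 difference 2.81 ± 0.14, adjusted p = 0.000201). PFN1 had 235 and 234 CPM in the TRiC inputs and 613 and 557 CPM in the PFD inputs, 2.49-fold lower in the TRiC line (log2 difference -1.32 ± 0.07, adjusted p = 0.000228). CAP1 (-0.68), DSTN (-0.57) and CFL1 (-0.56) were also lower in the TRiC input, with adjusted p-values of 0.000984, 0.00675 and 0.00114. The call of DSTN was lost without TRiC input replicate 1 (adjusted p = 0.0800). CFL2 (0.42), PFN2 (0.33) and TMSB10 (0.10) missed the threshold, and all 8 genes passed it without PFD input replicate 1, as did 58.5% of all genes. The summed epithelial markers given above differed between the lines in the same direction as TMSB4X, but EPCAM alone did not follow the sum. The part of these markers in this result was not tested.

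On a scale common to all 8 libraries, the PFD input was the group that stood apart for PFN1. It had 587 ± 40.2 CPM there, against 242 ± 9.98 in the PFD pulldown, 235 ± 1.03 in the TRiC input and 173 ± 0.910 in the TRiC pulldown (mean ± SD, n = 2). The level of PFN1 in the PFD pulldown was thus close to that in the TRiC input. CFL1 was likewise highest in the PFD input, with 1276 ± 12.8 CPM in the PFD input, 864 ± 36.9 in the TRiC input, 850 ± 10.4 in the PFD pulldown and 658 ± 5.00 in the TRiC pulldown. For TMSB4X the lines stood apart instead, with 171 ± 16.2 and 105 ± 1.70 CPM in the TRiC input and pulldown and 24.1 ± 3.42 and 29.7 ± 0.210 CPM in the PFD input and pulldown.

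Few reads were counted on the pseudogenes. Of 34 annotated copies of the 8 genes, 15 had at most 10 counts in every library, and a mean of at least 100 counts was reached by CAP1P1 and CAP1P2 alone. The summed copies of TMSB4X came to between 1.78% and 27.8% of its own counts, with the highest share in PFD pulldown replicate 1, where TMSB4X had 281 counts. For every other parent gene the copies stayed at or below 4.56%. In the TRiC line 13 copies were tested and 3 differed, as did 19.2% of all genes, and in the PFD line 6 were tested and none differed, against 0.241% of all genes. The 3 genes are named here after their values were seen. TMSB4XP1 had 250 and 163 counts in the TRiC inputs against 14 and 17 in the pulldowns (log2 fold change -3.73 ± 0.39, adjusted p = 6.4e-06), so it fell together with TMSB4X and by more. TMSB10P1 had 89 and 96 counts in the TRiC inputs against 52 and 23 in the TRiC pulldowns (-1.35 ± 0.41, adjusted p = 0.0276). PFN1P1, which holds 154 windows identical to PFN1, had 74 and 125 counts in the TRiC inputs against 205 and 160 in the TRiC pulldowns (0.88 ± 0.27, adjusted p = 0.0323), opposite to its parent. All copies of PFN1 together had 209 and 167 counts in the TRiC pulldowns, against 5843 and 4387 for PFN1 itself.

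Among other actin regulators, changes in the TRiC pulldown went both ways. Of 58 listed genes, 56 were tested in the TRiC line, of which 14 fell, 2 rose and 40 did not pass the threshold, with a median log2 fold change of -0.10. Of all genes tested, 10.6% fell and 8.64% rose, the background for the counts of each group below. Among the regulators of cofilin, 4 of 12 fell and none rose. CORO1B, a coronin that works with cofilin on branched networks, had 158 and 148 CPM in the inputs and 119 and 103 CPM in the pulldowns (-0.47, adjusted p = 0.00154). Among other monomer and filament binders 3 of 11 fell. TMSB15A, another β-thymosin gene, had 27.6 and 33.6 CPM in the inputs and 18.2 and 20.2 CPM in the pulldowns (-0.68, adjusted p = 0.00213), close to TMSB4X in fold change. TWF2, a twinfilin that binds ADP-actin monomers, fell by 0.46 on the log2 scale, as did COTL1, a small relative of cofilin that binds filaments (adjusted p = 0.00219 and 0.00324).

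Of 23 nucleators and their activators, 4 fell and 2 rose. Both that rose are formins with long coding sequences, DIAPH2 (0.51, adjusted p = 0.0104, 3303 nt) and DIAPH1 (0.30, adjusted p = 0.00794, 3816 nt). Of 10 capping and severing proteins 3 fell, with CAPG, a filament capper of the gelsolin family, the lowest at -0.61 (adjusted p = 0.000758). With all 8 libraries in one fit the count of regulators called went from 16 to 0. The share of all genes called went from 19.2% to 0.164%. In the PFD line none of the 52 regulators tested passed by edgeR or DESeq2, and 1 had an unadjusted p under 0.05, against 6.93% of all genes. Without PFD pulldown replicate 2, 3 of 53 regulators were called there, against 15.8% of all genes.

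The gene whose profile over the 8 libraries was most like that of CFL1, by Euclidean distance of centred log2 CPM among 8024 protein coding genes with at least 100 counts in every library, was UQCRQ (distance 0.103), followed by UBE2T (0.151) and NOSIP (0.159). Within the set TMSB10 came closest to CFL1 at rank 297, then CAP1 at 1138, PFN1 at 2388, DSTN at 2577, TMSB4X at 5381, PFN2 at 5490 and CFL2 at 6241. These ranks are a description without a test.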

How the data were processed

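RPFs were sequenced from 8 libraries of U-2 OS cells, and the authors deposited whole-number counts per gene without normalization, in a table for each line. Per the methods and labels, reads were trimmed and demultiplexed with an awk script, deduplicated with umi-tools, cleared of non-coding RNA with Bowtie2 2.4.2 and mapped to hg38 with STAR 2.7.10a, keeping unique alignments. The annotation release and the strand setting are not given in the sources used here. Of 60664 gene identifiers, 60463 were found in GENCODE release 44, the source of names, positions and coding sequences. Reads that mapped to several places were not counted, and the effect on genes with genomic copies was not tested.

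Totals were 9523128 to 32637658 counts a library, and precision is limited by 2 replicates a group and, for CFL2 and TMSB4X in the PFD libraries, by low counts. Each pulldown was tested against the input of its line on the deposited counts, using edgeR 4.0.16 under R 4.3.3 (TMM, filterByExpr, glmQLFit and glmQLFTest, no replicate block, adjusted p under 0.05 over all genes). The difference of enrichments was tested over all 8 libraries. The standard error is the log2 fold change over the square root of its quasi-F. The tests were also run on simulated counts, with larger changes than most found in the set, so this does not check the calls of small changes. Alternatives were DESeq2 1.42.0, a replicate block, scaling by library totals, cyclic loess with limma 3.58.1, no filter, at least 100 counts in every library, protein coding genes alone, a single fit of all 8 libraries, and omission of each library in turn. The genes and lists were chosen with earlier results of these data known. All 8 genes are named. Of the 58 actin regulators, those named are the 2 that rose in the TRiC pulldown and the 5 lowest by log2 fold change past the threshold there. The inputs were compared and the pseudogenes TMSB4XP1, TMSB10P1 and PFN1P1 chosen after their values were seen. No protein sequence was used here.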

Additional observations from a re-analysis of the deposited data

How the results depend on the processing

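In the TRiC pulldown all 8 genes stayed below 0 under every alternative run. The count past the threshold was 5, and it was 3 with cyclic loess (CFL1, PFN1 and TMSB4X), 0 with all 8 libraries in one fit, and 3 to 6 when each library was left out, with 3 without TRiC input replicate 1. In the PFD pulldown the count was 1, and it was 2, with CFL1 added, under a replicate block, DESeq2, library totals, cyclic loess, no filter, at least 100 counts in every library, protein coding genes alone and all 8 libraries in one fit. Leaving out each library gave 1 to 4. For the difference between the enrichments the count was 0, and it was 2 with DESeq2, 2 without a filter, 1 with at least 100 counts in every library, and 0 to 3 when each library was left out. For the inputs it was 5, and 4 to 8 when each library was left out. The actin regulators past the threshold in the TRiC pulldown numbered 16, 0 with all 8 libraries in one fit and 6 to 20 when each library was left out, and in the PFD pulldown 0, and 0 to 3 when each library was left out.

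The replicate numbers were not shown to pair the samples, since the differences between replicates correlated between input and pulldown at 0.157 in the TRiC and -0.0998 in the PFD line. With the replicate block 7 genes of the set (CFL2 and CAP1 added) and 21 regulators passed in the TRiC pulldown. So did 26.1% of all genes tested, against 19.2% without the block. For the difference 0 genes of the set passed with the block.

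Values that changed direction were not called, and those of CFL2 were about as large as its main difference of 0.23. In the PFD pulldown DSTN was -0.032 without PFD pulldown replicate 1, in a range of -0.032 to 0.189 when each library was left out. For the difference, CFL2 was -0.26 without PFD input replicate 1 and -0.22 without PFD pulldown replicate 1, in a range of -0.26 to 1.01. TMSB10 was 0.092 with cyclic loess, 0.14 without PFD pulldown replicate 1 and 0.0097 without TRiC pulldown replicate 2, in a range of -0.23 to 0.14, and CAP1 was 0.018 with cyclic loess. The cause was not tested.

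Over all genes, 1550 rose and 1894 fell in the TRiC pulldown, but 1801 and 1265 with library totals and 1630 and 1433 with cyclic loess, so that scaling moved this split. All 8 libraries in one fit gave 16 and 15. In the PFD pulldown 7 were higher and 27 lower, against 252 and 281 with DESeq2, 44 and 90 with the replicate block, 14 and 43 with cyclic loess, 59 and 93 without a filter and 27 and 56 with all 8 libraries in one fit. For the difference 4 and 3 became 464 and 521 with DESeq2, 213 and 298 without a filter and 10 and 4 with at least 100 counts in every library. Leaving out PFD pulldown replicate 2 gave 1081 and 1353 in the PFD pulldown. In the PFD libraries CFL2 had as few as 186 and TMSB4X 225 counts, which limits both.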
